A study of Homo sapiens with 18 samples.

Results

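The experiment described here switched on estrogen receptor beta (ERβ) in U2OS cells, a human osteosarcoma line, without adding its hormone. Its members were 6 of the 18 arrays of the series, chosen by their labels: 3 arrays of ERβ-vector cells given doxycycline and 3 arrays of the same line without it. Both groups carried a stably transfected, doxycycline-inducible vector for ERβ and neither received E2 (estradiol). Set beside them were 3 arrays of cells with an ERα vector given doxycycline and 3 arrays of that line without it. Responses to E2 were read from 3 arrays of ERα-vector cells and 3 arrays of ERβ-vector cells, each given doxycycline plus E2. Each gene was read on single-colour Illumina arrays from 750 ng of total RNA. The sources used here give no doses, times or culture medium, nor the number of clones behind each line. Nothing in the labels tells whether arrays within a group stem from separate cultures. The p-values therefore cover the variation among these arrays alone, and that variation may be technical.

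ERβ, encoded by ESR2, is a nuclear receptor that binds DNA as a dimer, classically at estrogen response elements, and also acts through other DNA-bound factors such as AP-1. Hormone binding changes the shape of the receptor so that coactivators dock, but receptors can also act without added hormone. ERα, encoded by ESR1, is its close relative, and most textbook estrogen targets were described for ERα in breast cells. Doxycycline is an antibiotic used to switch such vectors on. It can also act on cells by itself, among other things on mitochondrial protein synthesis, so the ERα line given the same antibiotic is set beside the ERβ line. That line is not a control for the drug alone, since doxycycline may also switch on its ERα vector. By the labels no group had doxycycline without a receptor vector. Whether a change shared by the lines came from the drug or from a receptor was therefore not tested. An effect shared by both receptors would be lost from the difference between the lines.

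Levels are normalized log2 signals, and changes are log2 differences, doxycycline minus none, with their standard error (SE) from a fit to all 18 arrays. Genes were called at a Benjamini-Hochberg adjusted p below 0.05 in limma over 13505 genes, and "rose" and "fell" are used for called genes. Probes were used when detected on at least 3 of the 18 arrays: 858 probes were detected on exactly 3 arrays (median mean level 5.87) and just outside stood 1194 probes detected on 2 (5.77). On the 6 arrays 19834 to 21192 probes were detected, the lowest detected level lay between 6.28 and 6.52, and the median SE of a change was 0.14. Where a gene was undetected on all 3 arrays of one group, its fitted change is not a bound, and "at least N-fold" is given instead. That bound sets the mean of the group that was detected against, on each array of the other, the lowest level of a detected probe or the gene's own level if that was higher.

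Promoters are shown for genes of 2 lists, interferon-stimulated genes and ATF4 and amino-acid stress genes, to let the letters upstream be read beside the values below. Each line gives the 250 bases before the start of the gene on its own strand, from RefSeq on GRCh38.p14, and IFIT1 and ASNS were chosen after their values were seen. Every promoter shown holds the letters marked for its list. Those of RSAD2, GDF15, TRIB3 and PSAT1, which are not shown, had no match. In the first group capitals mark GAAA, 2 bases of any kind and GAAA again, a form of the interferon-stimulated response element, read on both strands.
ISG15, chr1:1013247-1013496, plus strand: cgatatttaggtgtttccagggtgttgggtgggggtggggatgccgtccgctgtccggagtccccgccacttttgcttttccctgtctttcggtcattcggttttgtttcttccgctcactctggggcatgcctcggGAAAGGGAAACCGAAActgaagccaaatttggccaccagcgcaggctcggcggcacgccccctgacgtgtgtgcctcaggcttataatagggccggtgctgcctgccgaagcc
ISG20, chr15:88638766-88639015, plus strand: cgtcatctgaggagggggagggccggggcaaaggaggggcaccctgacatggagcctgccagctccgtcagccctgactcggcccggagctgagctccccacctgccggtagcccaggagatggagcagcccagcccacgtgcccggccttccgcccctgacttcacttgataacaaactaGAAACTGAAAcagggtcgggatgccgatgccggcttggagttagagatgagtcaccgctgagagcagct
IFIT1, chr10:89392373-89392622, plus strand: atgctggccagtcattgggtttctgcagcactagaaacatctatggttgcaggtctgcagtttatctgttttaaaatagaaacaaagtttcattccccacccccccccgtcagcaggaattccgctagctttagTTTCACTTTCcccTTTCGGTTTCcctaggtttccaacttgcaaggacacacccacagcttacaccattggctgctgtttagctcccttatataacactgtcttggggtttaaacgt
In the second group capitals mark TGATGNAA, the core of the element that ATF4 binds together with C/EBP proteins, again on both strands.
FGF21, chr19:48755274-48755523, plus strand: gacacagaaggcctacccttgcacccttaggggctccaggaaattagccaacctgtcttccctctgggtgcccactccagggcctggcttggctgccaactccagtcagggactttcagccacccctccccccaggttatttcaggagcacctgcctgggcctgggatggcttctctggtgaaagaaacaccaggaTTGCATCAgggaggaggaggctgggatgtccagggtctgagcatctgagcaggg
ASNS, chr7:97872409-97872658, minus strand: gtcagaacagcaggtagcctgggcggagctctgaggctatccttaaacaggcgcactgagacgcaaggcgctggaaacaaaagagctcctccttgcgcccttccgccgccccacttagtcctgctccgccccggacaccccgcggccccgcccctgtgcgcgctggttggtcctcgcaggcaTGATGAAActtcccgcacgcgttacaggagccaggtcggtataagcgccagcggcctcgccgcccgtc

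RefSeq promoters were matched for 10937 of the 13505 genes. The interferon-stimulated response element in this form was present in 10 of the 13 interferon-stimulated genes that rose and had a promoter (76.9%), and in 2.38% of all promoters. Overlapping matches were counted separately, as in ISG15, where they lay at bases -113 to -104 and -107 to -98 from the start. The TGATGNAA motif was present in 5 of the 24 ATF4-list genes that fell and had a promoter (20.8%), and in 1.78% of all. The single arm of an estrogen response element, GGTCA, was in 28.8% of 312 promoters of genes whose fitted rise passed 2-fold. It was in 28.9% of 149 promoters of genes whose fitted fall passed 2-fold, and in 30.4% of all. The full palindrome, GGTCA and TGACC separated by 3 bases, was found in 0 of either set and in 1 promoter of all. The AP-1 letters TGANTCA were in 8.33% of the risers, 11.4% of the fallers and 4.45% of all. These shares describe letters in a short window. The share among members of the 2 lists that were not called was not counted. The figures therefore describe the lists and do not tie the letters to the change with doxycycline.

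The receptor itself was read first. ESR2 stood at 15.98, 16.05 and 15.79 on the ERβ arrays with doxycycline, against 11.39, 11.29 and 11.10 without it (probe ILMN_2390457). The second ESR2 probe, ILMN_1740045, read 15.51, 15.68 and 15.13 with doxycycline, against 9.86, 9.97 and 9.84 without. The groups did not overlap on either probe, and ESR2 was clearly detected on all 3 arrays of the line without doxycycline, so the comparison is of high against lower ERβ and not of presence against absence. The change was 4.68 ± 0.22 on the first probe, a 25.7-fold rise (adjusted p = 8.23e-10), and 5.55 ± 0.19 on the second. The first probe reached 87.2% of the brightest signal on the array with doxycycline, near the top of the scale. In the ERα line neither ESR2 probe was detected with or without doxycycline. ESR1 was undetected on all 6 ERβ arrays. In the ERα line the ESR1 probe was detected on 0 of 3 arrays with doxycycline and on 1 of 3 without, so these values do not show ERα being switched on there, and it is not known from the labels whether the probe reads the vector's transcript.

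**Figure D1:**
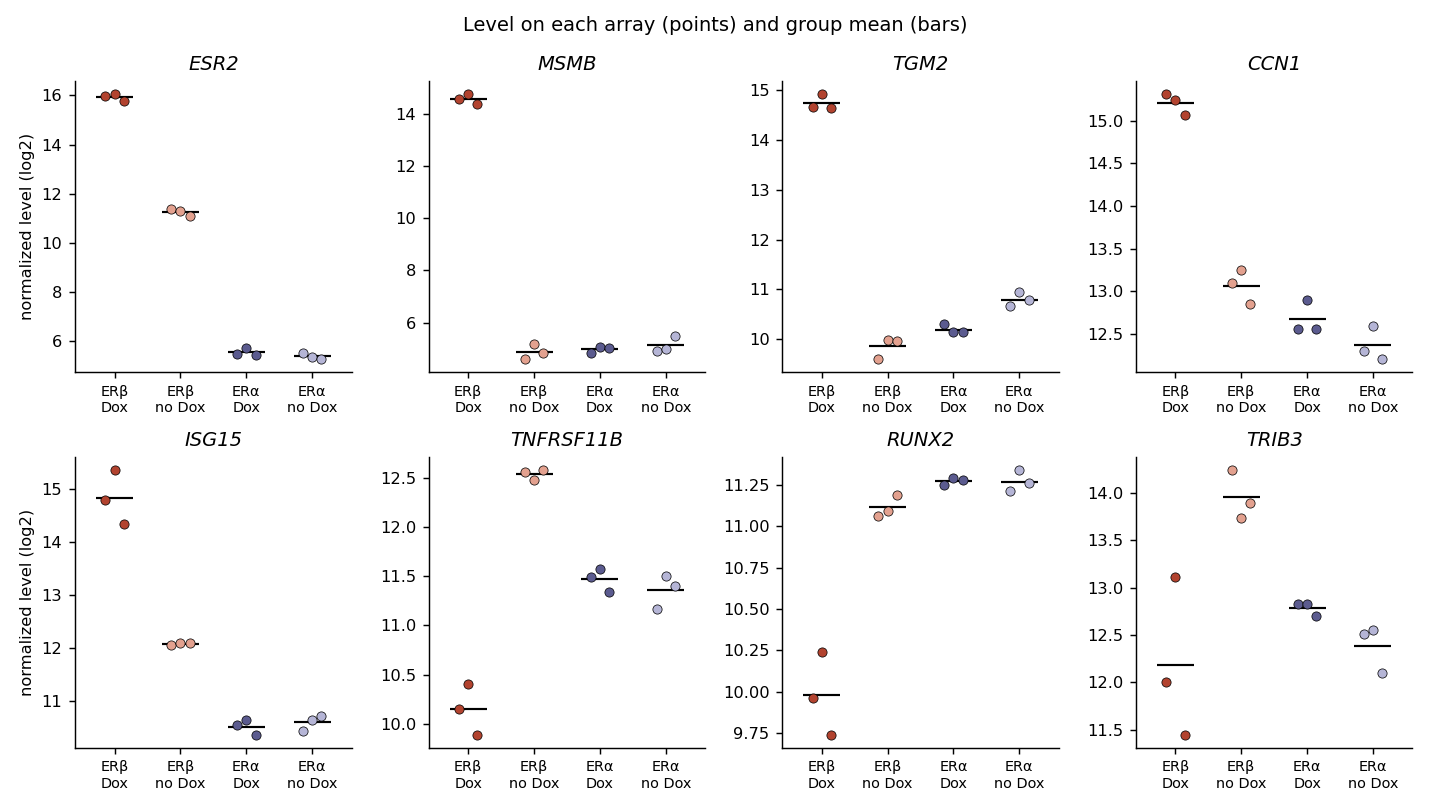
Normalized log2 level of 8 genes on each array (points) with the group mean (bars), in ERβ cells with and without doxycycline (Dox) and ERα cells with and without it. ESR2, MSMB, TGM2, CCN1 and ISG15 were higher with doxycycline in the ERβ line, TNFRSF11B, RUNX2 and TRIB3 were lower, and the 3 ERβ doxycycline arrays spread most for TRIB3 (11.45 to 13.11).

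With doxycycline, 2776 genes were called in the ERβ line (20.6% of those tested), of which 1337 rose (9.9%) and 1439 fell (10.7%). Fitted changes were larger upward: 419 risers and 196 fallers passed 2-fold, 125 against 23 passed 4-fold, and 59 against 3 passed 8-fold. These counts use fitted changes, which are not bounds for undetected genes. Of the 419 risers 119 were undetected on all 3 arrays without doxycycline, and of the 196 fallers 33 on all 3 with it. The arrays of the ERβ groups did not overlap for 4597 genes (34% of all), and for 2708 of the 2776 called. Among the risers 173 were undetected on all 3 arrays without doxycycline, and among the fallers 53 were undetected on all 3 with it. Without array 1 of the group lacking doxycycline the count of fallers was 943. The median change over all genes was -0.04.

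The gene with the largest fitted rise was MSMB, which encodes a secreted protein of prostatic fluid. MSMB read 14.55, 14.74 and 14.38 with doxycycline, against 4.62, 5.17 and 4.86 without, where it was undetected. This is a rise of at least 283-fold (adjusted p = 5.20e-15). CCN5, a matricellular protein, stood at 11.49, 11.25 and 11.41 with doxycycline and at 5.24, 5.81 and 5.55 without, a rise of at least 31.4-fold. Signals in the groups were thus separated by several log2 units for both genes.

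Enzymes that modify proteins were among the strongest risers. The transglutaminase TGM2, which cross-links proteins, read 14.66, 14.91 and 14.64 with doxycycline, against 9.61, 9.99 and 9.97 without (29.4-fold, adjusted p = 5.99e-13). Its other kept probes, which were dim, rose by a fitted 2.55 and 3.35, so the size depends on the probe. F13A1, the catalytic A chain of coagulation factor XIII and also a transglutaminase, rose at least 29.6-fold, with 11.20, 11.25 and 11.44 on the doxycycline arrays and 6.07, 5.85 and 6.19 on the others. PADI4, which converts arginine in proteins to citrulline, rose at least 12.8-fold, to 10.35, 9.34 and 10.59, against 5.53, 5.31 and 5.54. PADI3 rose at least 4.55-fold. In the list of transglutaminases and peptidylarginine deiminases 5 of 11 measured genes rose and 0 fell. Over all genes 9.9% rose and 10.7% fell. The median change of the list was 0.74, against -0.04 over all genes.

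Secreted protease inhibitors also rose. CST1, a salivary cystatin that inhibits cysteine proteases, read 10.87, 11.61 and 10.63 with doxycycline and 5.53, 5.34 and 5.06 without (at least 24.7-fold). CST5, another cystatin, read 11.09, 11.34 and 11.03 with doxycycline, against 5.27, 6.29 and 6.40, where it was detected on 1 of 3 arrays. SERPINA1, the main inhibitor of neutrophil elastase, stood at 14.51, 15.21 and 14.31 with doxycycline and at 11.40, 11.32 and 11.46 without (9.75-fold, adjusted p = 1.69e-09). SERPINA3, an acute-phase serpin, read 9.72, 11.30 and 9.06 against 8.15, 7.76 and 7.65, with 1 of the doxycycline arrays well above the others. Of 19 measured cystatins and proteases of the secretory route 7 rose and 2 fell, beside 9.9% and 10.7% over all genes.

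Epithelial keratins came on in this mesenchymal line, but not as a set. KRT73 read 10.40, 10.47 and 10.46 with doxycycline, against 5.44, 5.54 and 4.98 (at least 16.4-fold), and KRT72 read 10.79, 10.22 and 10.72 against 5.27, 5.92 and 5.88 (at least 18.0-fold). Both are best known from the hair follicle. KRT19, a keratin of simple epithelia, read 9.97, 9.05 and 10.52 against 4.94, 5.14 and 4.76 (at least 10.9-fold), and KRT13 rose at least 2.98-fold. The epithelial transcription factor ELF3 rose by 1.63 ± 0.24. Of 24 measured keratin and junction genes 10 rose and 4 fell, beside 9.9% and 10.7% over all genes, with a median of 0.17. Defining epithelial genes, chosen after their values were seen, were not called higher: CDH1 had a difference of -0.62 and EPCAM of -0.28, neither called, ESRP1 was undetected, and the tight-junction gene CLDN1 fell by 1.75. Of 7 measured epithelial markers 2 rose and 1 fell, and their summed signal was 15100 to 17400 with doxycycline and 14200 to 16200 without. In such bulk RNA fewer cells of a type and less RNA per cell cannot be told apart.

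The other genes of the largest rises have varied roles. MAP7D2, a microtubule-associated protein, rose at least 14.8-fold. FGFBP1, which releases FGFs from the matrix, read 10.04, 10.05 and 9.54 with doxycycline and was undetected without it (4.96, 4.90 and 5.06). MARCHF4, a membrane-bound ubiquitin ligase, stood at 12.64, 13.11 and 12.07 with doxycycline and at 7.50, 7.68 and 7.68 without, a 31.8-fold rise. These 3 genes were not overlapping between the groups, as the rule that chose them required.

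**Figure D2:**
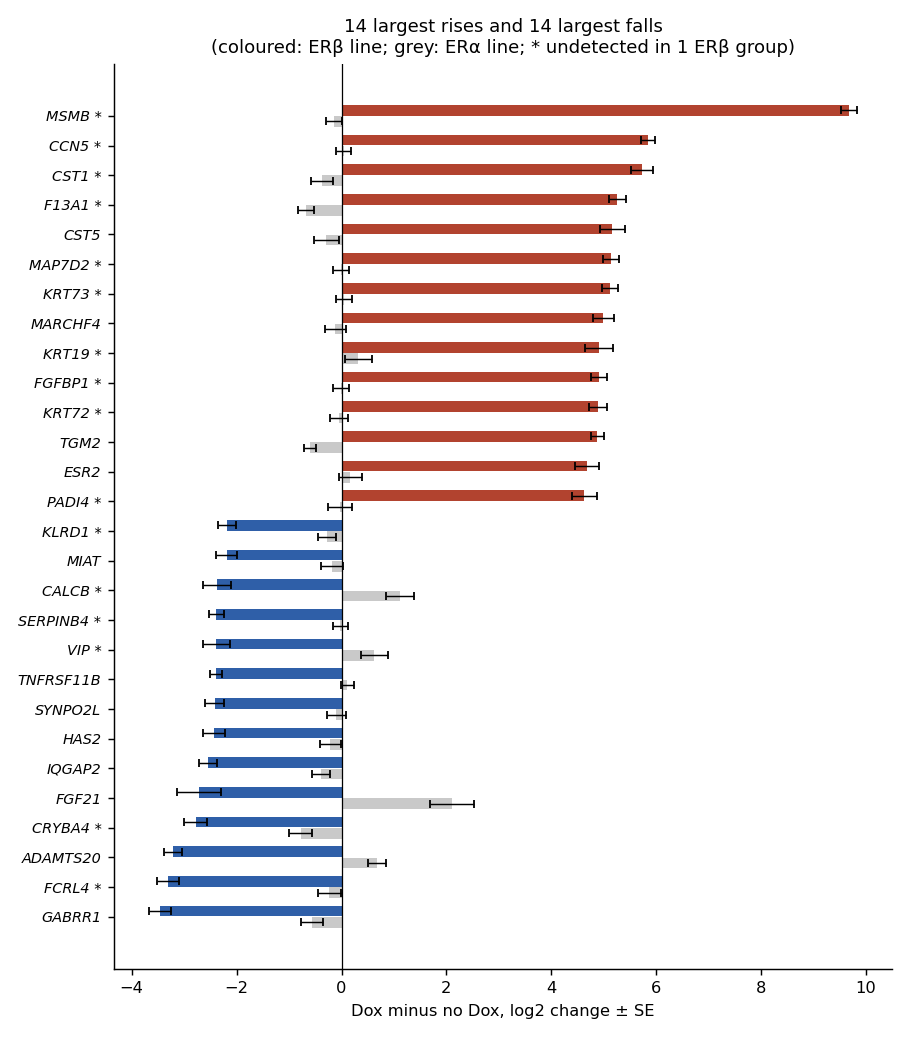
Log2 change with doxycycline (± SE) for the 14 largest rises and 14 largest falls of the ERβ line, in colour, with the same gene's change in the ERα line in grey below each bar. Rises reach a fitted 9.67 (MSMB, undetected without doxycycline), falls end at -3.45 (GABRR1), and grey bars are short for most genes. That of FGF21 points the other way, but no size is read from it, since FGF21 was undetected in ERα cells without doxycycline.

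The falls were smaller. GABRR1, a GABA receptor subunit, read 9.43, 9.77 and 8.57 with doxycycline, against 12.75, 12.76 and 12.63, and fell by 3.45 ± 0.21 (adjusted p = 1.16e-08). ADAMTS20, a secreted metalloprotease, read 6.66, 7.06 and 6.42 against 10.12, 9.89 and 9.74 (9.22-fold, adjusted p = 3.03e-09). IQGAP2, a scaffold protein of the cytoskeleton, read 7.57, 8.33 and 7.56 against 10.44, 10.25 and 10.40. These groups lay more than 1 log2 unit apart throughout.

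Genes of the extracellular matrix and of bone were among the fallers. TNFRSF11B, which encodes osteoprotegerin, the decoy receptor that restrains osteoclast formation, read 10.15, 10.40 and 9.89 with doxycycline, against 12.56, 12.48 and 12.58 (5.25-fold lower, adjusted p = 1.21e-09). HAS2, a hyaluronan synthase, read 6.66, 6.50 and 6.18 against 8.83, 9.06 and 8.76, and was detected on 2 of 3 arrays with doxycycline. SYNPO2L, an actin-associated protein of striated muscle, read 7.37, 6.62 and 7.50 against 9.58, 9.66 and 9.49, and fell by 2.42. MIAT, a long noncoding RNA, fell by 2.19. FCRL4, an Fc receptor-like protein of B cells, fell at least 4.53-fold, CRYBA4, a lens crystallin, at least 6.03-fold, and KLRD1, a receptor of natural killer cells, at least 3.43-fold. The neuropeptide genes VIP and CALCB fell at least 2.44-fold and 3.31-fold, and the serpin SERPINB4 at least 2.02-fold. For these last 6 genes the level with doxycycline was below detection.

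Whether the changes belonged to the ERβ line was tested as the doxycycline change in ERβ cells minus that in ERα cells. The lines also differed at the start. Without doxycycline GDF15 read 12.33, 12.09 and 12.23 in ERβ cells and 7.13, 7.22 and 7.60 in ERα cells. CRYBA4 went the other way, with 9.01, 8.70 and 9.11 against 13.85, 14.77 and 14.83. How far a called difference follows from the starting level was not tested. In the ERα line 2 genes were called for doxycycline (0.0148% of those tested; 705 genes had an unadjusted p below 0.05). ATF3, a stress-induced transcription factor, read 11.18, 11.03 and 11.02 in ERα cells with doxycycline, against 9.98 to 10.13 without, and rose by 1.04. FYN, a Src-family kinase, read 9.50, 9.79 and 9.48 against 10.78, 10.93 and 11.11, and fell by 1.35. In the ERβ line both were called with the opposite sign: ATF3 fell (-0.34, adjusted p = 0.0143) and FYN rose (1.23, adjusted p = 2.99e-06). The doxycycline changes differed between the lines for 1305 genes (9.66%), being higher in the ERβ line for 721 (5.34%) and lower for 584 (4.32%). With the replicate number as a block the lower count was 975.

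Of the 1337 genes that rose in the ERβ line, 703 also had a change above that of the ERα line, and of the 1439 that fell, 548 had a change below it. Among fitted changes above 2-fold the difference was called for 372 of 419 risers and 163 of 196 fallers. For the 634 risers and 891 fallers without a called difference, the data do not show that doxycycline acted differently in the lines. Among genes not already named, the rule took those with the largest fitted differences. Upward it named CYP24A1, the enzyme that inactivates vitamin D, RIPOR2, the antimicrobial peptide DEFB1, the inflammasome sensor NLRP3 and the muscle light-chain kinase MYLK2. Each of these 5 was undetected on all arrays of at least 1 of the 4 groups, so neither the sizes of their differences nor their order was measured. CYP24A1, DEFB1 and MYLK2 were undetected in ERβ cells without doxycycline and rose there at least 9.36-fold, 11.5-fold and 13.5-fold. CYP24A1, DEFB1, NLRP3 and RIPOR2 were undetected in ERα cells with doxycycline. Downward stood GDF15, a secreted stress cytokine (-2.79 ± 0.27), and KCNIP4 (-2.39), FUT1 (-2.37), BEST1 (-2.37) and the activin subunit INHBE (-2.33). FUT1 read 6.08, 7.97 and 5.79 with doxycycline in ERβ cells and 8.52, 8.22 and 8.49 without. Its ERβ change was not called when doxycycline array 4 or 6 was left out. FUT1 was detected on 1 of 3 arrays in each of ERβ cells with doxycycline, ERα cells with it and ERα cells without it. The size of its difference was therefore poorly measured.

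**Figure D3:**
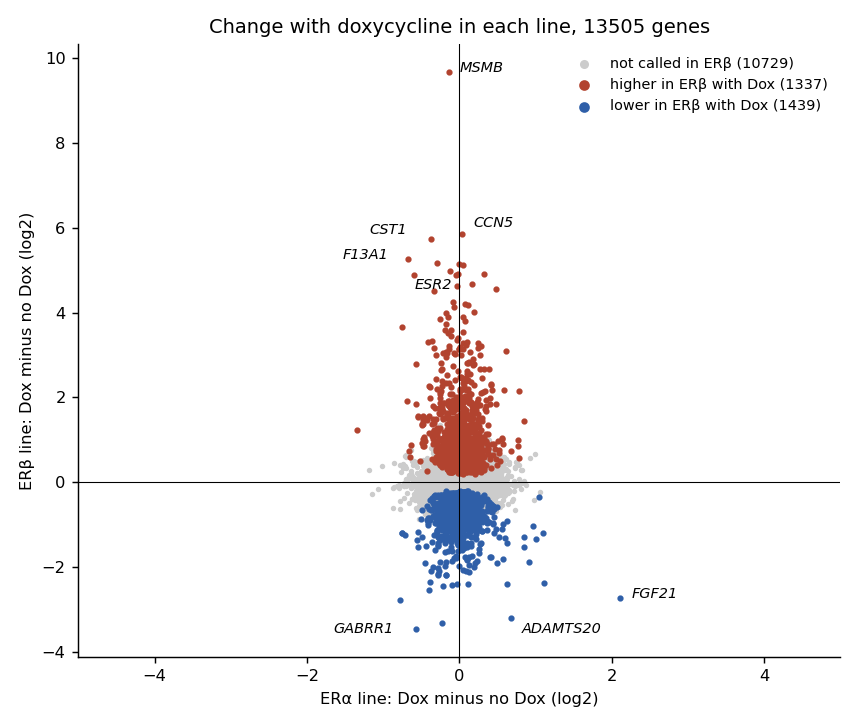
Log2 change with doxycycline in the ERβ line (vertical) against that in the ERα line (horizontal) for 13505 genes, coloured where called in the ERβ line (1337 higher, 1439 lower). Points spread along the vertical axis, with MSMB at a fitted 9.67, and few lie beyond 1 on the horizontal axis. Values of genes undetected in a group, such as FGF21 at the far right, are fitted values and not measured sizes.

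The risers were next set beside the genes that E2 raised in the ERα line, a comparison made on other arrays (ERα cells with doxycycline plus E2 against ERα cells with doxycycline, 1475 genes higher, 10.9%, and 1500 lower, 11.1%). Of the 1337 ERβ risers, 563 were also raised by E2 in the ERα line (42.1% of the risers, 38.2% of the E2 list) and 70 were lowered by it. Of the 1439 ERβ fallers, 471 were also lowered by E2 (32.7% of the fallers, 31.4% of the E2 list) and 90 were raised. Of the 14 largest rises, 13 were raised by E2 in the ERα line, the exception being ESR2 itself, and of the 14 largest falls 10 were lowered. Among fitted changes above 2-fold, 256 of 419 risers and 109 of 196 fallers had the same call. The ERβ cells had no added E2, and the labels leave the hormone content of the medium unstated.

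When E2 was added to the doxycycline-treated ERβ cells, a comparison that shares the ERβ doxycycline arrays, KRT19 rose by a further 3.66, CST5 by 2.45, CST1 by 1.54 and PADI4 by 1.42, and MARCHF4 fell by 0.99. The differences of MSMB (0.15), MAP7D2 (-0.25) and TGM2 (-0.30) were not called there.

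Gene lists were read by their counts, beside 9.9% rising and 10.7% falling over all genes. Of 36 measured classical estrogen targets of breast cells, 14 rose and 3 fell, with a median change of 0.19. IGFBP4, which binds insulin-like growth factors, read 12.26, 12.60 and 12.16 with doxycycline, against 9.49, 9.97 and 9.68 (6.16-fold, adjusted p = 3.03e-09). GREB1, a cofactor of estrogen receptors in breast cells, read 10.15, 9.97 and 10.45 against 8.81, 8.80 and 8.97 (2.51-fold on its brightest probe). Its other probes gave 1.21, undetected without doxycycline, and 0.55, which was not called. CA12, a membrane carbonic anhydrase, rose by 1.50 ± 0.14, the protein kinase inhibitor PKIB by 1.53 ± 0.10 and the small heat shock protein HSPB8 by 1.45 ± 0.13. The 3 fallers were the chemokine CXCL12 (-1.13), MYC (-0.56) and STC2, a glycoprotein hormone that was undetected with doxycycline. CXCL12 and STC2 are named after their values were seen. Of the 14 risers 10 were also raised by E2 in the ERα line. PGR and TFF1 had 1 probe each, detected on 0 arrays.

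Among nuclear receptors 4 of 26 rose and 2 fell. The orphan receptor NR2F6 rose by 1.25 ± 0.11, PPARD by 0.94 and the retinoic acid receptor RARA by 0.61, and the immediate-early receptor NR4A2 fell by 1.01. Of 20 coactivators, corepressors and membrane receptors 4 rose and 1 fell. GPER1, a membrane protein described as an estrogen receptor, read 9.59, 9.16 and 9.75 with doxycycline, against 7.02, 7.27 and 7.40 (4.84-fold), the coactivator NCOA4 rose by 1.05, BCAR1 by 0.84, and PPARGC1A, a coactivator of mitochondrial genes, fell by 1.03. CYP19A1, the aromatase that makes estrogens from androgens, was undetected without doxycycline (6.30, 5.15 and 5.43) and stood at 8.81, 8.91 and 8.69 with it, a rise of at least 5.25-fold. It belongs to the list of estrogen metabolism and aryl hydrocarbon receptor genes, in which 2 of 14 rose and 1 fell.

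**Figure D4:**
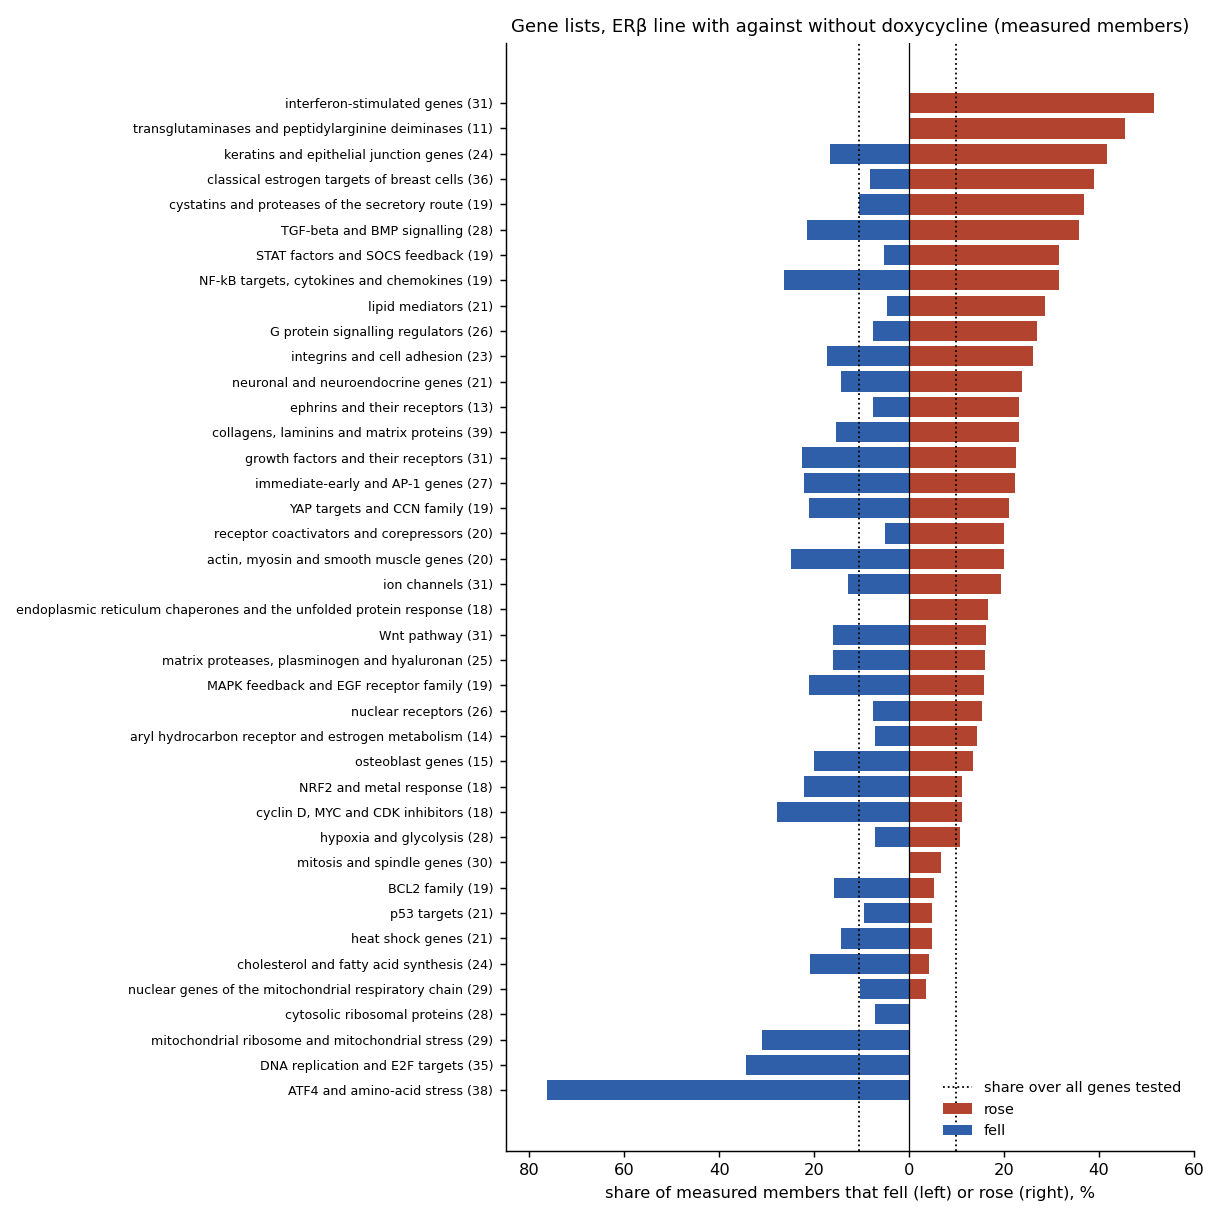
Share of the measured members of each gene list that rose (right, red) or fell (left, blue) with doxycycline in the ERβ line, with the number measured in brackets and dotted lines at the shares over all genes (9.9% and 10.7%). Interferon-stimulated genes stand at the rising end with 16 of 31 and ATF4 and amino-acid stress genes at the falling end with 29 of 38.

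Interferon-stimulated genes are the antiviral set that cells switch on when interferons or foreign nucleic acids are sensed. In the main fit their called changes were all rises. Of 31 measured members 16 rose, 0 fell and 15 were not called, with a median change of 0.50. RSAD2, which encodes the antiviral enzyme viperin, read 11.89, 12.19 and 11.84 with doxycycline, against 8.92, 8.71 and 9.15 (8.26-fold, adjusted p = 1.29e-09). ISG15, a ubiquitin-like modifier, read 14.80, 15.36 and 14.34 against 12.05, 12.10 and 12.10 (6.74-fold, adjusted p = 3.72e-07). The double-stranded RNA sensor-related gene OASL read 14.37, 14.73 and 13.95 against 12.10, 11.80 and 11.87. The exonuclease gene ISG20 read 15.52, 15.92 and 15.05 against 13.19, 13.10 and 13.19. IFIT1, which binds foreign RNA, rose by 1.84 ± 0.13. In RSAD2, ISG15, OASL and ISG20 doxycycline array 5 was the highest and the groups did not overlap.

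The set did not move as a whole. Of its best known members, MX1 had a difference of -0.19, IFI6 of -0.10, IFI27 of 0.18, OAS1 of 0.10 and IRF1 of -0.35, none of them called. These 5 genes were chosen after their values were seen. Across the 31 genes the median deviation from the arrays without doxycycline was 0.44 on doxycycline array 4, 0.69 on array 5 and 0.18 on array 6. On these arrays 6, 4 and 11 of the genes lay below the mean of the arrays without doxycycline. Without array 5 the count of risers was 14, and without the arrays of replicate number 1 in every group it was 12. With the replicate number as a block 16 rose and 1 fell, and with the authors' processed values 18 rose and 1 fell. In the ERα line the median change was -0.01, and the change was higher in the ERβ line for 12 of the 31. RSAD2 was undetected in ERα cells with and without doxycycline, so its change there was not measured. With E2 in the ERα line 2 of the 16 risers rose and 2 fell, near the shares over all genes. ISG20 read 13.97, 14.18 and 14.08 in ERα cells with doxycycline plus E2, against 12.26, 12.18 and 12.10 with doxycycline alone. The blood markers PTPRC, CD3E, CD14, HBB and ITGAM were undetected on the ERβ arrays, and of 2 measured blood and 4 measured endothelial markers 0 were called.

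ATF4 is the transcription factor that cells use when amino acids run short or translation is halted, and its targets make amino acids, import them and charge tRNAs. Of 38 measured genes of this list 29 fell and 0 rose, with a median of -0.61. FGF21, a hormone secreted under such stress, read 6.41, 8.45 and 6.15 with doxycycline, against 9.95, 9.69 and 9.51, and fell by 2.71 ± 0.42 (adjusted p = 2.37e-04). GDF15 read 10.29, 10.66 and 10.08 against 12.33, 12.09 and 12.23 (3.66-fold lower). The pseudokinase TRIB3 read 11.45 to 13.11, highest on array 5, against 14.24, 13.73 and 13.89 (3.40-fold lower). PSAT1, an enzyme of serine synthesis, read 11.51, 12.03 and 11.27 against 12.97, 12.85 and 12.94 (2.49-fold lower). In all 4 genes doxycycline array 5 lay closest to the arrays without doxycycline.

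ATF4 mRNA itself had a difference of -0.11, which was not called, and the asparagine synthetase ASNS fell by 0.99 ± 0.19. On doxycycline arrays 4, 5 and 6 the median deviation of the 38 genes was -0.71, -0.29 and -0.81. Leaving out array 6 gave 19 falls, leaving out array 5 gave 33, and fitting only the 6 arrays gave 14. Without the arrays of replicate number 1 in every group 7 fell, and without those of number 3, 17 fell. The fit gives each gene 1 spread from all arrays, so where the doxycycline arrays vary more, as for FGF21 (SD 1.26, against 0.23 without) and TRIB3 (0.84 against 0.26), its SE may be too small. In the ERα line the same genes had a median change of 0.30, with 1 called (ATF3, higher), and the difference between the lines was called lower in ERβ cells for 27 of 38. In that line GDF15 had a difference of 0.92, and FGF21 was undetected without doxycycline; neither was called there. With E2 in the ERα line 2 of the 29 fallers rose and 5 fell.

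**Figure D5:**
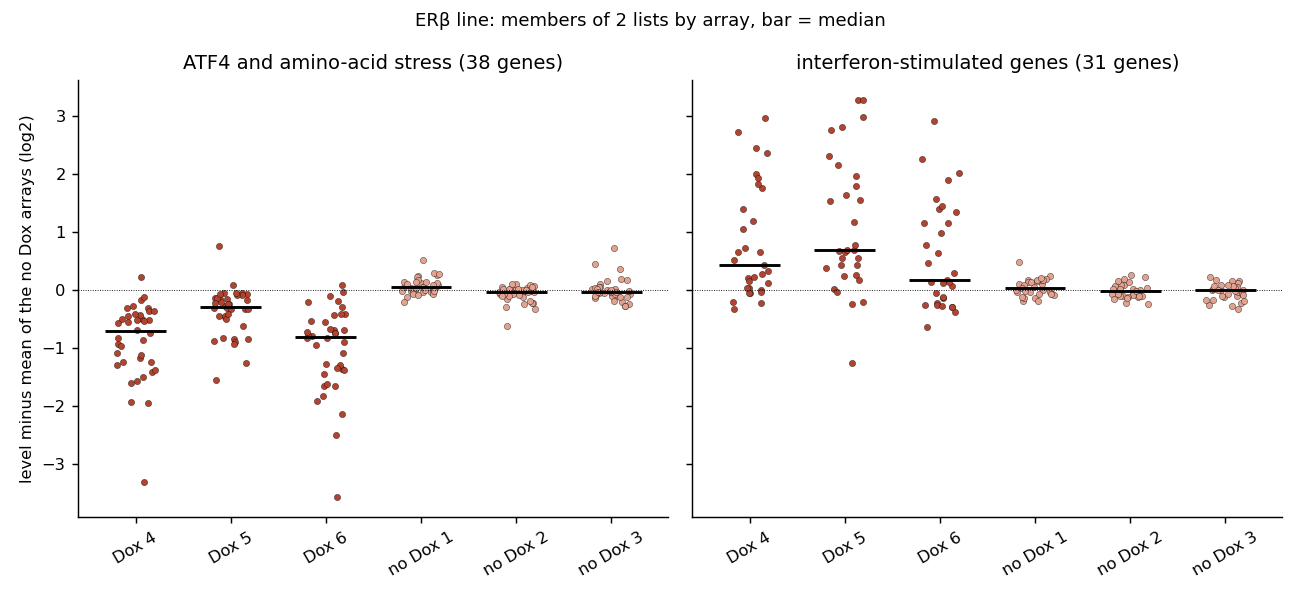
Level of each member minus its mean over the ERβ arrays without doxycycline (log2), for 38 ATF4 and amino-acid stress genes and 31 interferon-stimulated genes, on the 3 ERβ arrays with and the 3 without doxycycline; bars are medians. Array 5 with doxycycline shows the smallest fall of the first list (median -0.29) and the largest rise of the second (0.69).

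Other stress and organelle lists moved less. Of 18 chaperones of the endoplasmic reticulum 3 rose and 0 fell, among them HSPA5 (0.37) and MANF (0.42). Of 29 genes of the mitochondrial ribosome and mitochondrial stress 9 fell and 0 rose, with a median of -0.19, and 0 of the 9 were called for E2 in the ERα line. They included TFAM, which packages mitochondrial DNA (-0.51 ± 0.09), the elongation factor GFM1 (-0.49) and the transcription factor ATF5 (-0.61). The list had a median of 0.02 in the ERα line given the same antibiotic, and the difference was called for 5 of 29. The count of falls did not hold throughout: it was 0 without the arrays of replicate number 1 in every group, 3 without those of number 2 and 3 with only the 6 arrays fitted. Of 29 nuclear genes of the respiratory chain 1 rose and 3 fell, and of 28 cytosolic ribosomal protein genes 0 rose and 2 fell. Among 21 heat shock genes 1 rose and 3 fell, with the small chaperone CRYAB lower by 1.34 ± 0.14. Of 18 NRF2 and metal response genes 2 rose and 4 fell. Both risers were metallothioneins, MT1X (15.98, 16.09 and 15.79, against 14.38, 14.46 and 14.25) and MT1G (12.78, 13.21 and 12.99, against 10.76, 10.71 and 11.45). These genes have near-identical relatives, so their probes may share signal, and MT1X lay near the top of the scale.

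Of 35 DNA replication and E2F target genes 12 fell and 0 rose, with a median of -0.23. CDC6, which loads the replicative helicase, read 8.02, 7.82 and 8.05 with doxycycline, against 8.67, 8.57 and 8.42, and fell by 0.59. CCNE1, the cyclin of S-phase entry, fell by 0.54. The count depended on single arrays, being 4 with only the 6 arrays fitted, 4 without array 1 of the group lacking doxycycline, 7 without its array 2 and 5 without doxycycline array 5. It was 1 without the arrays of replicate number 1 in every group and 1 without those of number 2. The difference from the ERα line was called for 1 of the 35, and 7 of the 12 fallers were raised by E2 in that line. Of 30 mitosis and spindle genes 2 rose and 0 fell, a direction that did not hold: with a median shift in place of quantile normalization 0 rose and 2 fell, and 0 were called with no filter on dim probes, with only the 6 arrays fitted, without array 1 lacking doxycycline or without doxycycline array 4. In the list of cyclin D, MYC and CDK inhibitors 2 of 18 rose and 5 fell: MYC fell by 0.56 ± 0.13, CDK6 by 0.65 and MYCN by 0.68, and MXD1, which opposes MYC, rose by 1.65 ± 0.14 (10.80, 11.22 and 10.67, against 9.44, 9.29 and 9.01). Among 21 p53 targets 1 rose and 2 fell. In the BCL2 family 1 of 19 rose and 3 fell, with the death promoters BMF and HRK lower by 1.05 and 0.97 and the survival gene MCL1 higher by 0.41.

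Inflammatory genes split. Of 19 NF-kB targets, cytokines and chemokines 6 rose and 5 fell. These counts did not hold throughout: without the arrays of replicate number 1 in every group 1 rose and 3 fell. With only the 6 arrays fitted 3 rose and 3 fell. The median change was 0.16, against 0.26 in the ERα line. The difference between the lines was called higher in ERβ cells for 0 of the 19 and lower for 5. The chemokine CCL2 read 8.33, 8.98 and 8.09 with doxycycline, against 10.37, 10.33 and 10.40 (3.73-fold lower, adjusted p = 4.77e-07), and IL6 read 9.84, 10.05 and 9.06 against 11.31, 10.84 and 11.11. CCL5 read 12.39, 13.39 and 11.70 against 11.02, 10.75 and 10.68, and the macrophage growth factor CSF1 rose at least 2.48-fold. For CCL5 and CSF1 array 5 was again the highest, and the difference from the ERα line was not called (adjusted p = 0.111 and 0.0501). Of 19 STAT and SOCS genes 6 rose and 1 fell, including IL6R (at least 1.24-fold) and SOCS3 (0.82).

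Growth factor pathways held several strong risers. The EGF receptor ligand TGFA read 13.43, 14.14 and 13.31 with doxycycline, against 10.36, 10.31 and 10.56 (9.28-fold, adjusted p = 3.00e-09), and the MAPK and EGF receptor list had 3 rises and 4 falls among 19. The receptor tyrosine kinase RET was undetected without doxycycline (5.43, 6.04 and 5.71) and read 8.76, 8.31 and 9.23 with it, at least 5.13-fold higher. The neurotrophin BDNF rose by 1.53 ± 0.13. The growth factor list had 7 rises and 7 falls among 31, and VEGFA was one of the genes that fell (-1.18). EPHA4, an ephrin receptor, rose at least 5.04-fold, with 8.82, 8.76 and 8.66 against 5.41, 5.77 and 6.03, and 3 of 13 ephrin genes rose and 1 fell. EPHA4 fell by 1.52 with E2 in the ERα line, opposite to its change here.

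In the TGF-beta and BMP list 10 of 28 rose and 6 fell. FST, which encodes the activin inhibitor follistatin, read 15.83 to 16.01 on the 3 arrays with doxycycline, against 12.72, 12.94 and 12.78 (8.79-fold on a probe that reached 87.6% of the brightest signal, adjusted p = 2.99e-12). TGFBI, a matrix protein named for its induction by TGF-beta, read 12.88, 12.57 and 13.01 against 15.01, 15.13 and 14.83 (4.49-fold lower). The inhibitory SMAD6 fell by 1.88 ± 0.21 and the BMP antagonist NOG by 1.19 ± 0.13. All 6 fallers of this list changed with E2 in the ERα line, 5 lower and 1 higher. Among YAP targets and CCN genes 4 of 19 rose and 4 fell. CCN1, a matricellular immediate-early protein, read 15.31, 15.24 and 15.07 with doxycycline against 13.10, 13.25 and 12.85 (4.40-fold). In the immediate-early and AP-1 list 6 of 27 rose and 6 fell, with the mRNA-destabilizing ZFP36 up by 1.52. Of 31 Wnt genes 5 rose and 5 fell, led by the receptor FZD4 (1.69), the secreted antagonist SFRP1 (1.15) and WNT10A (-1.11).

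Bone and matrix genes were checked against the origin of the line. Of 15 measured osteoblast genes 2 rose and 3 fell. RUNX2, the master regulator of osteoblasts, read 9.96, 10.24 and 9.74 with doxycycline, against 11.06, 11.09 and 11.19 (2.19-fold lower, adjusted p = 1.96e-06), and SPARC rose by 0.67. The osteoblast markers SP7, IBSP and COL1A2 were undetected on the ERβ arrays, while 8 of 11 osteoblast and mesenchymal markers were measured, of which 2 rose and 2 fell (summed signal 91300 to 95100 with doxycycline and 84200 to 90400 without). Among 39 collagens, laminins and matrix proteins 9 rose and 6 fell: COL18A1, the precursor of endostatin, rose at least 3.93-fold, and LAMA4 and LUM fell by 1.51 and 0.91. Of 7 fibroblast markers 5 fell and 0 rose, and their summed signal was 11600 to 13400 with doxycycline and 21200 to 22000 without. The count was 3 without doxycycline array 5, without array 2 of the other group, or with a median shift in place of quantile normalization. It was 1 without the arrays of replicate number 1 in every group. The part of the lower fibroblast signal in the matrix changes was not tested. Of 25 matrix proteases and hyaluronan genes 4 rose, TIMP3 among them (at least 1.64-fold), and 4 fell.

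Adhesion, contractile and signalling genes completed the lists. Of 23 integrin and adhesion genes 6 rose and 4 fell, with the collagen receptors ITGA1 (at least 2.95-fold) and ITGA2 (1.46 ± 0.18) higher. Of 20 actin, myosin and smooth muscle genes 4 rose and 5 fell, LMCD1 falling by 1.84 ± 0.12. Among 26 regulators of G protein signalling 7 rose and 2 fell: RGS10 read 13.55, 13.60 and 13.49 with doxycycline against 11.82, 11.76 and 11.71, and RGS4 read 11.61, 11.22 and 11.63 against 9.58, 9.80 and 9.49, while RGS16 read 9.67, 9.68 and 9.56 against 11.61, 11.85 and 11.77. With E2 in the ERα line 6 of the 7 risers rose and both fallers fell. Of 21 lipid mediator genes 6 rose and 1 fell, including ENPP2, which makes lysophosphatidic acid (9.75, 9.91 and 9.86, against 7.63, 7.85 and 7.51). Of 31 ion channels 6 rose and 4 fell, with the sodium channel subunit SCNN1A higher by 1.64 and the potassium channel KCNJ2 lower by 1.94.

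Of 21 neuronal and neuroendocrine genes 5 rose and 3 fell. TH, the rate-limiting enzyme of dopamine synthesis, was undetected without doxycycline (5.62, 5.35 and 5.61) and read 9.53, 8.69 and 9.58 with it, at least 7.24-fold higher, while DDC, the next enzyme of that pathway, fell at least 1.64-fold. OTOF, which encodes otoferlin of the inner ear, read 9.67, 9.49 and 9.74 against 6.42, 6.52 and 6.39 (9.15-fold on a probe detected on 2 of 3 arrays without doxycycline). The neuronal markers TUBB3 and SNAP25 fell by 1.02 and 0.44, RBFOX3 was undetected, and the summed signal of the 4 measured neuronal markers was 4600 to 5490 with doxycycline and 7730 to 8750 without. In hypoxia and glycolysis genes 3 of 28 rose and 2 fell, the hexokinase HK1 rising by 0.96. Of 24 cholesterol and fatty acid genes 1 rose and 5 fell, none by 2-fold.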

How the data were processed

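Total RNA of 18 samples, 3 in each of 6 groups taken from the labels, was hybridized to Illumina arrays, and 6 of the samples form the comparison described. The authors deposited probe intensity that, per the file headers, was not normalized, and beside each signal a p-value of detection. They also deposited processed intensity, and lumi is a tool in the submitters' processing notes. The sources used here say neither how lumi was run nor which arrays were scanned together, and the processed intensity served as an alternative.

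Intensities were background-corrected with the detection p-values, quantile-normalized and put on a log2 scale (neqc, offset 16, limma 3.58.1 in R 4.3.3). A probe was kept when its detection p was under 0.01 on 3 or more of the 18 arrays, as for 24226 of 48803. In the platform annotation 27578 probes had 1 gene symbol, 13 had several and 21212 none, and only the first are named. For genes with several kept probes the one with the highest mean level was used. Group means were fitted to all 18 arrays with lmFit and tested 2-sided with eBayes (12 residual and 2.66 prior degrees of freedom). On simulated data for the ERβ doxycycline comparison, with 200 of 13505 genes changed, the fit recovered 50% of log2 changes of 0.5, 80% of 1 and 98% of 2, and 5.20% of its calls were false. The simulated noise was independent between arrays, while same-numbered arrays deviated together. Far fewer genes changed there than the 20.6% called here, so these shares may not carry over. The number of arrays limits the precision.

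Named genes are ESR2, ESR1, GREB1, PGR, TFF1, KRT19, CCN5 and MSMB, the 14 largest rises and falls among called genes whose groups did not overlap, the 5 largest differences from the ERα line each way, and up to 4 called members of each list with the largest change, with symbols of uncharacterized genes passed over. Others are named where the text says that they were chosen after their values were seen or as examples of a printed count. The members and the 46 lists were chosen with earlier results of these data known. Columns of the doxycycline groups carry no replicate number, so numbers were taken from the best rank match with the processed columns, a step chosen after seeing the data. Same-numbered ERβ arrays deviated together from their group means (correlations 0.235, 0.204 and 0.478), so the numbers were taken to pair the samples. The main fit did not use this pairing, so its SEs, p-values and counts are unpaired. The fit with the number as a block is an alternative, given under the processing below. No pair of arrays held identical values.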

Additional observations from a re-analysis of the deposited data

Results flagged for a closer look

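The doxycycline change differed between the lines, by the test of the difference itself, for 721 genes upward and 584 genes downward (ERβ minus ERα), and for 143 of the 179 named genes with a value. Among them CYP24A1 differed by 4.85, RIPOR2 by 4.43, DEFB1 by 4.32, NLRP3 by 4.20 and MYLK2 by 4.15, all higher in ERβ cells, and GDF15 by -2.79, KCNIP4 by -2.39, FUT1 by -2.37, BEST1 by -2.37 and INHBE by -2.33. These are fitted differences, and that of FUT1 rests partly on groups in which it was detected on 1 of 3 arrays. CYP24A1, RIPOR2, DEFB1, NLRP3 and MYLK2 were each undetected on all arrays of at least 1 of the 4 groups, so for them the value is neither a bound nor a measured size, and their order is not read. The 2 genes called in the ERα line also differed, ATF3 by -1.37 and FYN by 2.57. Probes without a gene symbol were not part of the comparisons by gene. Of 5822 kept, 268 were higher and 267 lower with doxycycline in the ERβ line, against 1 called in the ERα line. Fitted changes passed 2-fold for 96 of the higher and 50 of the lower probes.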

How the results depend on the processing

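ESR2 rose under each alternative that gave it a value (log2 change 4.59 to 5.12), and 0 named genes changed sign. With detection required on all 18 arrays, ESR2 and 56 other named genes had no value. The authors' processed values gave 2038 higher and 2610 lower genes, and 1278 and 1481 for the difference between the lines. Fitting only the arrays compared gave 834 and 714. Array weights gave 2237 lower genes and 953 for the lower difference. With the replicate block the counts were 1686 and 2098, with 975 for the lower difference, and the block changed no call of a named gene. The authors' values with the block, an alternative chosen after seeing the data, gave 2211 lower and 1066 for the lower difference. Leaving out 1 array gave 1070 to 1348 higher and 943 to 1390 lower genes, and 597 to 811 and 417 to 585 for the difference. Leaving out all arrays of 1 number gave 605 to 1218 higher and 412 to 1238 lower, and 294 to 602 and 117 to 364 for the difference, each lowest without number 1. Of 178 named genes that were called, 58 lost the call without number 1 and 33 with only the arrays compared. The cause was not tested. The array scale limits genes whose probes lay near the brightest signal, such as ESR2, FST and MT1X. With doxycycline in ERβ cells ISG20 (15.05 to 15.92), NCOA4 (15.59 to 15.88) and HK1 (15.42 to 15.72) also stood high on that scale. Small changes may be missed: on the simulated data, with independent noise, 50% of log2 changes of 0.5 were recovered.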
